A study of Mus musculus with 7 samples.

Results

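Expression of 10 genes of Notch signaling was examined in whole ovaries of adult C57BL/6J mice. They are the receptors Notch1, Notch2, Notch3 and Notch4, the ligands Jag1, Jag2 and Dll4, and the target genes Hes1, Hey1 and Heyl, chosen by name out of 55487 gene identifiers. CNTR ovaries (n = 3) came from offspring of dams given PBS. PAMH F3 ovaries (n = 4) came from the third generation descended from F0 dams given AMH at 0.12 mg/kg per day in late gestation, with no AMH given in the later generations. All mice were taken at diestrus on postnatal day 60, and each library represents the ovaries of one mouse as the labels give them. The CNTR mice were direct offspring of the injected dams, so prenatal AMH ancestry and generation cannot be told apart.

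Notch receptors are membrane proteins that bind Jagged and Delta-like ligands on a neighboring cell. Binding leads to cleavage of the receptor, and its intracellular part enters the nucleus, joins the DNA-binding protein RBPJ and switches on genes such as the Hes and Hey repressors. In the ovary the pathway is known from granulosa cells, which carry NOTCH2 while oocytes present JAG1, and from the vessels of growing follicles and corpora lutea, where DLL4, NOTCH4 and NOTCH3 act in endothelial and mural cells.

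Between 32158174 and 35485021 reads were counted on genes in each library. Levels are given as CPM, the counts of a gene scaled to library size by edgeR's TMM method. Markers of granulosa cells, oocytes and corpora lutea were present in every library, as the tissue label calls for. Oviduct epithelium markers such as Ovgp1 were present as well, with a summed level of 2952 to 5243 CPM in CNTR and 2528 to 6354 CPM in PAMH F3. CNTR replicate 2 stood apart from the other libraries in base composition. Its log2 level relative to each gene's mean over all libraries rose by 0.25 for each 10% of transcript GC across 18773 genes. The other 6 libraries had slopes between -0.10 and 0.04. These slopes are relative to each other, since the mean of each gene included every library. Of the 10 Notch genes, 9 had a GC content above the median of the genes tested, which was 49.3%. Values for CNTR replicate 2 are therefore given wherever a difference rests on it.

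None of the 10 genes passed the test between PAMH F3 and CNTR ovaries. Adjusted p values ran from 0.576 for Jag2 to 0.963 for Notch2 in edgeR's quasi-likelihood test with 2 surrogate variables, which are covariates estimated from the counts for variation that the groups do not describe. The background was the same, with 0% of the 18779 genes tested past the threshold of 0.05 by edgeR. Before adjustment, 2 of the 10 genes had p under 0.05, Jag1 higher and Jag2 lower in PAMH F3. Across all genes tested that share was 7.64%, made up of 3.75% higher and 3.89% lower. Without surrogate variables it was 1 of the 10, Notch4, against 3.95% of all genes. DESeq2 with the same covariates called 101 of 33791 genes, of which 0 were among the 10. The libraries of the groups separated for none of the 10 genes, beside 4.25% of all genes (PAMH F3 above in 1.85% and below in 2.4%). At that share, none among 10 genes is no departure from the background. The median log2 fold change of the 10 genes was -0.11, beside 0.00 for all genes tested.

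**Figure D1:**
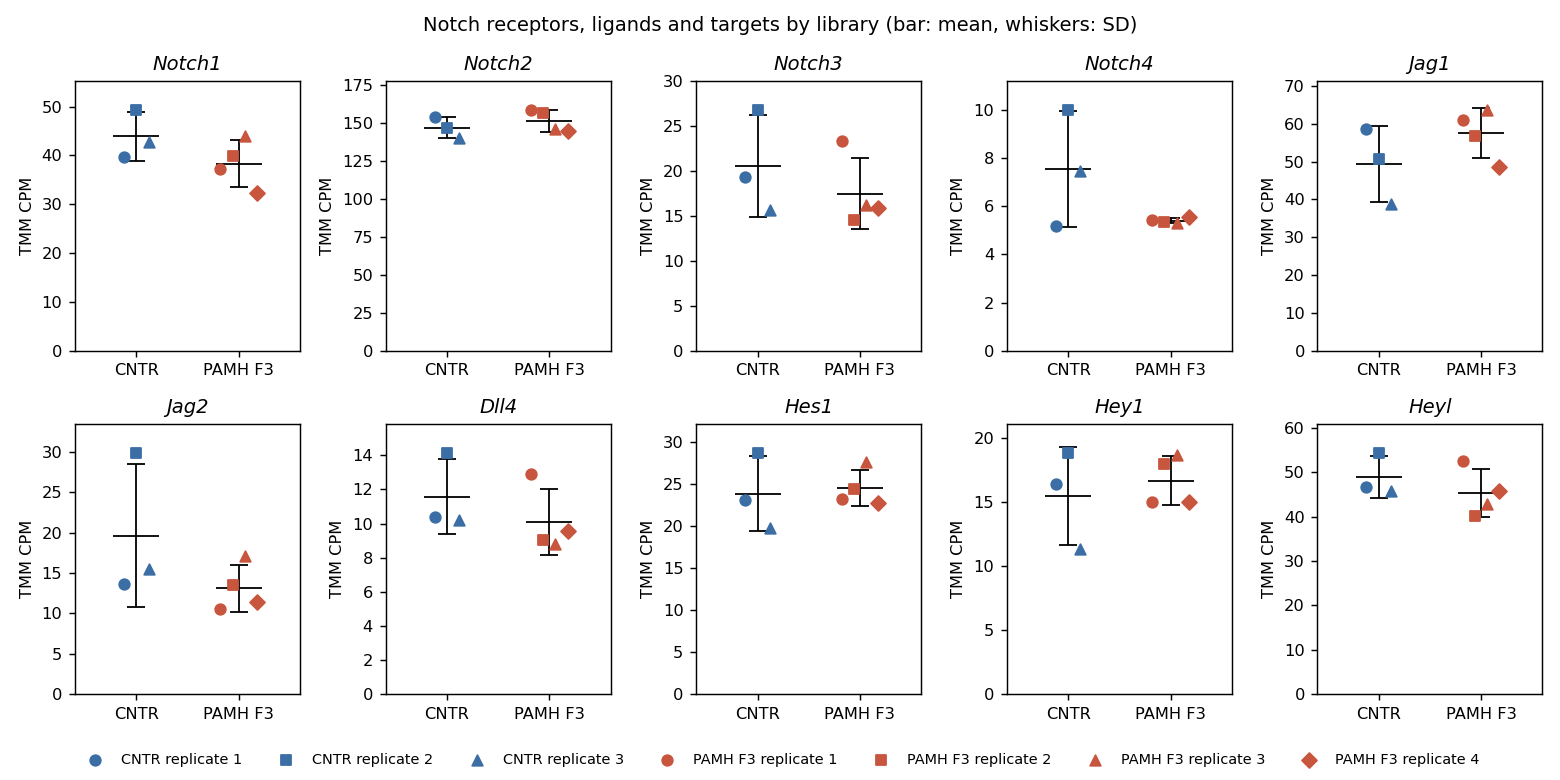
TMM CPM of each of the 10 genes (y axis, starting at 0) in the 3 CNTR and 4 PAMH F3 libraries, with a point per library, a bar at the group mean and whiskers of 1 SD. The groups overlap in every panel, CNTR replicate 2 (blue square) is the highest CNTR library in 8 of 10 panels, and the PAMH F3 points of Notch4 lie between 5.30 and 5.55 CPM.

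Among the receptors, Notch2 had the smallest spread in CNTR mice and Notch4 in PAMH F3 mice. Notch2 (chr3:98013527-98150361, plus strand, mm10), the receptor of granulosa cells, measured 154, 147 and 140 CPM in CNTR replicates 1 to 3 and 158, 156, 146 and 144 CPM in PAMH F3 replicates 1 to 4. Its coefficient of variation was 4.89% in CNTR and 4.74% in PAMH F3, and the groups lay on top of each other. PAMH F3 differed from CNTR by 0.02 ± 0.06 (SE) on the log2 scale, with a 95% interval from -0.12 to 0.16.

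Notch1 (chr2:26457903-26516663, minus strand), a receptor used in many tissues including endothelium, measured 39.6, 49.3 and 42.7 CPM in CNTR and 37.2, 39.8, 44.0 and 32.3 CPM in PAMH F3. The highest library was CNTR replicate 2 and the lowest PAMH F3 replicate 4, with the other 5 libraries interleaved. The difference on the log2 scale was -0.13 ± 0.08 (edgeR, adjusted p = 0.756). It was -0.25 without CNTR replicate 1 (unadjusted p = 0.00911, adjusted p = 0.155, edgeR) and -0.06 without PAMH F3 replicate 4.

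Notch3 (chr17:32120820-32166852, minus strand), the receptor of pericytes and vascular smooth muscle, measured 19.4, 26.8 and 15.6 CPM in CNTR and 23.3, 14.5, 16.2 and 15.9 CPM in PAMH F3. A single library in each group was high, CNTR replicate 2 and PAMH F3 replicate 1, and the remaining 5 lay between 14.5 and 19.4 CPM. Notch3 had a log2 fold change of -0.18 ± 0.23, the largest standard error of the 10 genes, and became -0.04 without CNTR replicate 2, -0.37 when CNTR replicate 3 was left out and -0.32 when PAMH F3 replicate 1 was.

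Notch4 (chr17:34564268-34588503, plus strand), a receptor found mainly in endothelium, measured 5.18, 9.99 and 7.46 CPM in CNTR. In PAMH F3 it measured 5.41, 5.33, 5.30 and 5.55 CPM. The PAMH F3 libraries were almost equal, with a coefficient of variation of 2.07%, while the CNTR libraries spread over 31.9%, and CNTR replicate 1 lay below all 4 PAMH F3 libraries. These values rest on few reads, between 172 and 333 per library. For Notch4 the log2 fold change was -0.26 ± 0.15 (edgeR, adjusted p = 0.731) and -0.48 without surrogate variables, where the unadjusted p was 0.0457. It moved to -0.15 without CNTR replicate 2 and to -0.69 without CNTR replicate 1, so its size differed with the CNTR mice included. In whole ovary, fewer cells of a type and less RNA per cell cannot be told apart.

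The ligands gave the lowest unadjusted p values, in opposite directions. Jag2 (chr12:112907819-112929776, minus strand), a Jagged-family ligand, measured 13.7, 29.9 and 15.4 CPM in CNTR and 10.5, 13.5, 17.1 and 11.4 CPM in PAMH F3. CNTR replicate 2 was 1.04 log2 units above the mean of the other CNTR libraries, the largest such excess of the 10 genes, and Jag2 also had the highest GC content of them, at 61.9%. The other 6 libraries lay between 10.5 and 17.1 CPM with the groups mixed. The log2 fold change was -0.29 ± 0.10 (unadjusted p = 0.0174, adjusted p = 0.576, edgeR). Without CNTR replicate 2 it was -0.15, with an unadjusted p of 0.218, and without CNTR replicate 1 it was -0.72, with an adjusted p of 0.0716. The part of base composition in the Jag2 difference was not tested.

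Jag1 (chr2:137081456-137116644, minus strand), the ligand known from oocytes, measured 58.6, 50.8 and 38.8 CPM in CNTR and 60.9, 56.7, 63.6 and 48.6 CPM in PAMH F3. A pair of PAMH F3 libraries lay above every CNTR library, and the lowest value was CNTR replicate 3. Jag1 had a log2 fold change of 0.18 ± 0.07 (unadjusted p = 0.0301, adjusted p = 0.623, edgeR), with a 95% interval from 0.02 to 0.33. With GC content of 48.8%, Jag1 differed little between CNTR replicate 2 and the other CNTR mice (0.06 on the log2 scale), and the fold change was 0.19 without that library. Without CNTR replicate 1 it was 0.38, and without CNTR replicate 3, the library with the least Jag1, it was 0.12 with an unadjusted p of 0.169 (edgeR). Leaving out any 1 PAMH F3 library gave unadjusted p values from 0.0526 to 0.0793, and leaving out the surrogate variables gave 0.168 (edgeR). The summed oviduct epithelium markers were lowest in CNTR replicate 3 (2952 CPM) and PAMH F3 replicate 4 (2528 CPM), the libraries with the least Jag1, and highest in PAMH F3 replicate 3 (6354 CPM), the library with the most. In between, the order of the sums was that of Jag1 except for PAMH F3 replicate 1. That library, next highest in Jag1, had a sum of 4059 CPM, below CNTR replicate 1 (5243 CPM) and PAMH F3 replicate 2 (4547 CPM). Ovgp1 made up most of the sum, at 2394 to 6172 CPM. Foxj1, of the same list, was lowest in PAMH F3 replicate 1 (64.0 CPM) and highest in CNTR replicate 2 (142 CPM). Pax8, also of that list, was lowest in CNTR replicate 3 (23.7 CPM) and highest in PAMH F3 replicate 3 (51.5 CPM), as Jag1 was. Pax2 was highest in CNTR replicate 2 (5.01 CPM). The part of oviduct tissue in the Jag1 values was not tested.

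Dll4 (chr2:119325784-119335962, plus strand), the Delta-like ligand of sprouting endothelium, measured 10.4, 14.1 and 10.2 CPM in CNTR and 12.9, 9.0, 8.82 and 9.56 CPM in PAMH F3. As for Notch3, CNTR replicate 2 and PAMH F3 replicate 1 were the high libraries. The other 3 PAMH F3 libraries were below all CNTR libraries. For Dll4 the log2 fold change was -0.16 ± 0.20 (edgeR, adjusted p = 0.891) and ran from -0.28 without CNTR replicate 3 to -0.03 without PAMH F3 replicate 3.

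The targets showed no common direction. Hes1 (chr16:30064384-30067796, plus strand), a transcriptional repressor and widely used readout of Notch activity, measured 23.1, 28.6 and 19.7 CPM in CNTR and 23.2, 24.4, 27.6 and 22.7 CPM in PAMH F3. The PAMH F3 libraries all fell inside the CNTR range. Hey1 (chr3:8663359-8667256, minus strand), a related repressor of endothelial cells, measured 16.4, 18.8 and 11.3 CPM in CNTR and 15.02, 17.98, 18.7 and 15.1 CPM in PAMH F3. Its PAMH F3 values were likewise inside the CNTR range. Heyl (chr4:123233556-123249875, plus strand), a Hey-family member of mural cells, measured 46.7, 54.4 and 45.83 CPM in CNTR and 52.7, 40.1, 42.9 and 45.75 CPM in PAMH F3. Only PAMH F3 replicate 1 exceeded a CNTR library. The log2 fold changes were 0.10 ± 0.08 for Hes1, 0.15 ± 0.10 for Hey1 and -0.10 ± 0.12 for Heyl, with adjusted p values of 0.807, 0.777 and 0.884 (edgeR).

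**Figure D2:**
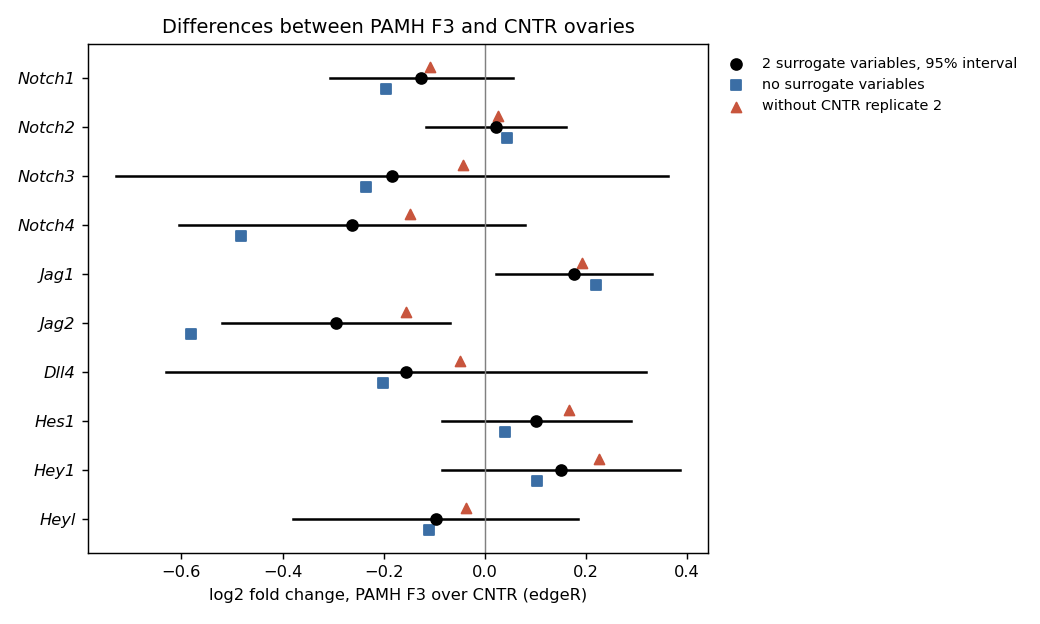
log2 fold change of PAMH F3 over CNTR (x axis) for each of the 10 genes, from edgeR with 2 surrogate variables (black, line: 95% interval), without surrogate variables (blue squares) and without CNTR replicate 2 (red triangles). The intervals of Jag1 and Jag2 leave out 0 before adjustment for 18779 genes, and the value of Jag2 runs from -0.58 without surrogate variables to -0.15 without CNTR replicate 2.

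Levels between genes were compared per kb of annotated exon. Notch2 was the most abundant of the 10, at 13.9 ± 0.65 CPM per kb (SD over the 7 libraries), above 77.3% of the genes tested. Hes1 followed at 11.9 ± 1.49, then Jag1 at 9.27 ± 1.47, Heyl at 9.17 ± 0.99 and Hey1 at 4.96 ± 0.82 CPM per kb. Notch1 (2.86), Dll4 (2.78), Notch3 (2.33) and Jag2 (2.29) formed a lower group, and Notch4 was lowest at 0.784 CPM per kb, above 22.6% of the genes tested. In this order the ranges of neighbors separated at 3 places, between Heyl and Hey1, between Hey1 and Notch1 and between Jag2 and Notch4. Notch2 exceeded Hes1 in 5 of 7 libraries, and Jag1 exceeded Heyl in 4. With the longest coding transcript as the length, Hes1 came first and Notch2 second, and 3 of the 10 genes kept their place.

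**Figure D3:**
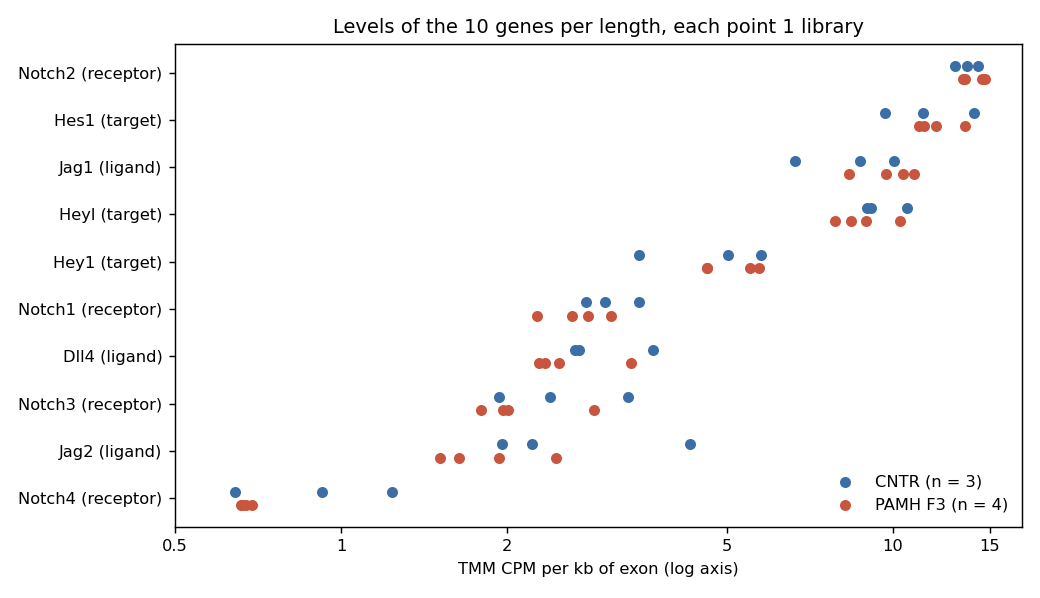
TMM CPM per kb of exon (x axis, log scale) of the 10 genes in order of their mean, with CNTR libraries in blue and PAMH F3 libraries in red. Notch2, Hes1, Jag1 and Heyl lie between 6.65 and 14.7 CPM per kb in every library, and Notch4 between 0.643 and 1.24.

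Within its role, Notch2 made up 62.9% to 73.4% of the receptor transcripts per length in a library. Jag1 made up 59.4% ± 8.16 (SD, n = 3) of the ligand transcripts in CNTR and 68.6% ± 1.29 (SD, n = 4) in PAMH F3. The groups overlapped, since CNTR replicate 1 had a Jag1 share of 68.3%. Jag2 took 25.7% of the ligand transcripts in CNTR replicate 2 and between 9.88% and 19.2% in the other 6 libraries.

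Across mice the 10 genes did not vary as a single block. Of 45 pairs, 4 had a Pearson correlation past the adjusted threshold over the 7 libraries (exact permutation test over every order of the libraries, two-sided). Dll4, Heyl and Notch3 varied together, at r = 0.96 for Dll4 and Heyl (adjusted p = 0.0179, exact permutation), 0.95 for Notch3 and Dll4 (adjusted p = 0.0446, exact permutation) and 0.93 for Notch3 and Heyl (adjusted p = 0.0179, exact permutation). The fourth pair was Hes1 and Hey1, at r = 0.92 (adjusted p = 0.0179, exact permutation). Spearman's rho for these pairs was 0.96, 0.75, 0.86 and 0.89 in the same order, and 0 of the 45 rho values passed after adjustment, with a lowest adjusted p of 0.125 (exact permutation). Without the pair of libraries farthest from the median of the first-named gene, r was 0.83, 0.61, 0.69 and 0.98. Without CNTR replicate 2 it was 0.93, 0.89, 0.89 and 0.93. In 10 of the 45 pairs r was below 0, and all values share the library and its depth.

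**Figure D4:**
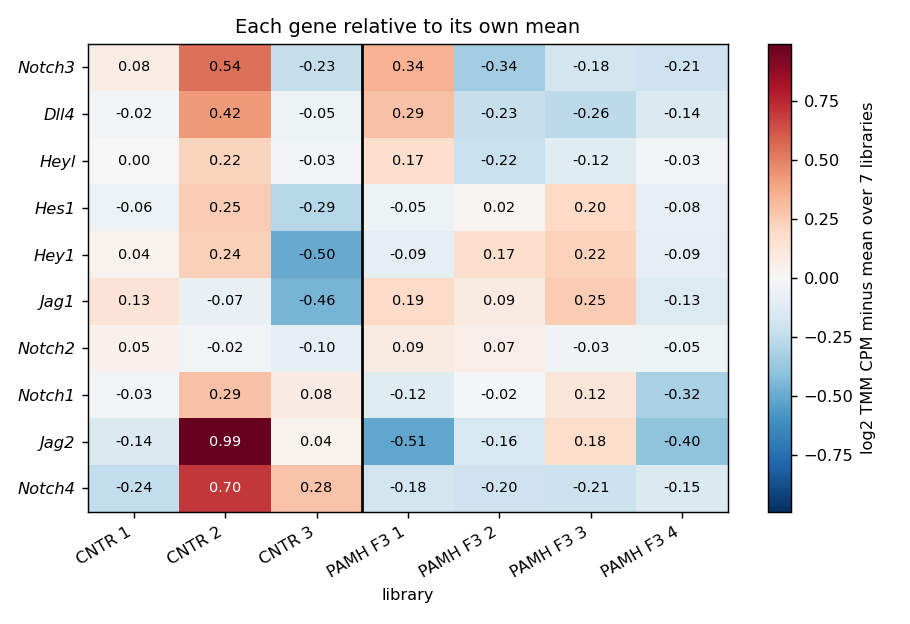
log2 TMM CPM of each gene (rows) minus its mean over the 7 libraries (columns, CNTR left of the line), printed in each cell. Notch3, Dll4 and Heyl are highest in CNTR 2 and PAMH F3 1, Hes1 and Hey1 are lowest in CNTR 3 (-0.29 and -0.50), and Jag2 reaches 0.99 in CNTR 2.

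Vessel markers were set beside the same libraries. The 12 endothelial markers summed to 431 to 462 CPM in CNTR and 363 to 465 CPM in PAMH F3, and the highest PAMH F3 library was replicate 1, as for Notch3, Dll4 and Heyl. Their log2 fold changes were below 0 for 11 of 12 markers, 3 of them with unadjusted p under 0.05 (Pecam1 -0.44, Emcn -0.21 and Cldn5 -0.51) and 0 past the adjusted threshold. Cldn5, with a GC content of 60.5%, was highest in CNTR replicate 2 (27.3 CPM). It measured 16.3 and 20.1 CPM in CNTR replicates 1 and 3 and 11.4 to 14.9 CPM in PAMH F3. Of all genes tested, 51.7% had a log2 fold change above 0. Unadjusted p was under 0.05 for 7.64% of all genes tested, with 3.89% lower in PAMH F3 (edgeR). The 12 markers of pericytes and vascular smooth muscle summed to 1774 to 2404 CPM in CNTR and 1390 to 2114 CPM in PAMH F3, again with 11 of 12 below 0 and Rgs5 (-0.40) the 1 with unadjusted p under 0.05. Acta2 (530 to 892 CPM) and Tagln (343 to 625 CPM) made up most of this sum. No marker of either list was at 0. Dll4 correlated with the endothelial sum at r = 0.80 (adjusted p = 0.269, exact permutation) and rho = 0.89 (adjusted p = 0.238, exact permutation), and Heyl at r = 0.78 and rho = 0.86 with the same adjusted p values. Without the pair of libraries farthest from the median endothelial sum, r was 0.61 for Dll4 and 0.54 for Heyl. Notch1 correlated with the mural sum at r = 0.80 (adjusted p = 0.269, exact permutation), which became -0.16 without the farthest pair of libraries. Notch3 correlated with the endothelial sum at r = 0.73 (adjusted p = 0.337, exact permutation). With the mural sum Notch3 had r = 0.49 (adjusted p = 0.689, exact permutation), which became -0.04 without the farthest pair of libraries. Dll4 and Heyl correlated with the mural sum at r = 0.58 and 0.39. None of the 20 relations between a Notch gene and a vessel marker sum passed after adjustment. The part of vessel content in the levels of Dll4, Heyl and Notch3 was not tested further.

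The other marker lists overlapped between the groups. Summed levels in CNTR and PAMH F3 ran from 2260 to 3377 and 2383 to 3315 CPM for granulosa cells, from 334 to 605 and 327 to 359 for theca, and from 1258 to 2491 and 842 to 1428 for corpus luteum. They ran from 202 to 267 and 166 to 268 CPM for oocytes, from 59.9 to 67.3 and 52.7 to 82.1 for leukocytes, from 390 to 523 and 296 to 451 for ovarian surface epithelium, and from 121 to 345 and 52.0 to 249 for adipocytes. Theca and corpus luteum sums were highest in CNTR replicate 3, the library with the least Jag1, Hes1 and Hey1. By gene, 5 markers of these lists had unadjusted p under 0.05, all lower in PAMH F3, and 0 passed after adjustment. They were Foxl2 (-0.25) and Amh (-0.34) of granulosa cells, Tcf21 (-0.39) of theca, Ptgfr (-0.95) of corpus luteum and Cd79a (-1.11) of leukocytes. With the vessel lists included, 9 of the 64 markers tested had unadjusted p under 0.05, all lower. Across all genes tested the share was 7.64%, with 3.89% lower (edgeR). The groups did not overlap for Cd79a, at levels below 1 CPM. CNTR replicate 2 was the highest library for Foxl2 (82.4 CPM), Amh (140 CPM) and Tcf21 (59.3 CPM), with GC contents of 60.8%, 65.4% and 49.9%. Over all lists, 50 of the 64 markers tested had a log2 fold change below 0, including 4 of 4 for adipocytes, 4 of 4 for ovarian surface epithelium and 3 of 3 for theca. Insl3 of theca cells was not tested for its low counts.

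A further 52 genes of the pathway were examined by role, 47 of which had enough counts to test. None passed the adjusted threshold (0% of all genes did, by edgeR). Before adjustment 9 of 47 had p under 0.05, 3 higher and 6 lower, beside 7.64% of all genes, and without surrogate variables the number was 5. Their median log2 fold change was -0.00.

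Of the 5 glycosyltransferases that modify Notch receptors, 3 had a log2 fold change below 0 and 2 above. A pair of the lower ones had unadjusted p under 0.05 (edgeR). Lfng, the lunatic fringe enzyme that tunes which ligand a receptor responds to and a known Notch target in the follicle, measured 13.7, 15.5 and 11.5 CPM in CNTR and 9.49, 10.0, 11.9 and 10.1 CPM in PAMH F3. Only PAMH F3 replicate 3 exceeded a CNTR library. The log2 fold change of Lfng was -0.34 ± 0.11 (unadjusted p = 0.0142, adjusted p = 0.560, edgeR). Mfng, manic fringe, measured 12.6, 12.0 and 10.4 CPM in CNTR and 10.2, 9.61, 10.3 and 7.68 CPM in PAMH F3. The groups were separate for Mfng, although the gap between CNTR replicate 3 and PAMH F3 replicate 3 was small. The log2 fold change of Mfng was -0.32 ± 0.12 (unadjusted p = 0.0267, edgeR). Poglut1, an O-glucosyltransferase and the most abundant gene of this group per length, had a log2 fold change of -0.03.

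Among regulators of receptor turnover, Dtx4 had the lowest unadjusted p of the 47 genes. Dtx4, a Deltex ubiquitin ligase, measured 121, 141 and 92.6 CPM in CNTR and 148, 152, 159 and 141 CPM in PAMH F3. Every PAMH F3 library was above every CNTR library, by less than 1 CPM at the closest pair. The log2 fold change of Dtx4 was 0.39 ± 0.08 (unadjusted p = 0.00135, adjusted p = 0.400, edgeR). Its relative Dtx1 measured 9.61, 15.1 and 11.8 CPM in CNTR and 7.76, 8.25, 11.0 and 7.56 CPM in PAMH F3 (log2 fold change -0.34). Dtx3, the most abundant of this group per length, had 0.08.

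In the remaining groups, unadjusted p was under 0.05 for 1 of 4 ligands and ligand-like proteins, 2 of 10 receptor cleavage genes and 2 of 12 nuclear complex genes. It was so for 0 of 4 ligand ubiquitin ligases and 0 of 3 other target genes, beside 7.64% of all genes (edgeR). Of the ligand-like proteins, Dner had a log2 fold change of -1.02, with 5.48 CPM in CNTR replicate 1 against 0.725 to 2.07 CPM in the other libraries. Dll1, a Delta-like ligand, was low throughout, between 3.95 and 5.88 CPM, with a log2 fold change of -0.09. In receptor cleavage, Furin, which cuts the receptor precursor, had -0.30, with its highest value of 145 CPM in CNTR replicate 2 and 65.5 to 89.1 CPM elsewhere. Psen2, a subunit of gamma-secretase, had 0.16 with surrogate variables and an unadjusted p of 0.90 without them. Adam10, the sheddase that makes the ligand-dependent cut, had 0.01. The ubiquitin ligase Mib1, needed for ligand endocytosis, had 0.03.

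In the nuclear complex, Tle1, a Groucho-type corepressor, had a log2 fold change of 0.20, and the corepressor Ctbp1 had -0.06. Maml2, a Mastermind coactivator, measured 24.9 to 27.1 CPM in CNTR and 27.9 to 30.6 CPM in PAMH F3, so that the groups were separate. The test gave Maml2 a log2 fold change of 0.13 and an unadjusted p of 0.129 (edgeR). Of the other target genes, Hey2 measured 50.4, 34.9 and 60.6 CPM in CNTR and 48.6, 59.4, 60.4 and 58.8 CPM in PAMH F3. For Hey2 the log2 fold change was 0.21 ± 0.16. The groups failed to overlap for 3 of the 47 genes, Dtx4, Maml2 and Mfng, beside 4.25% of all genes.

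**Figure D5:**
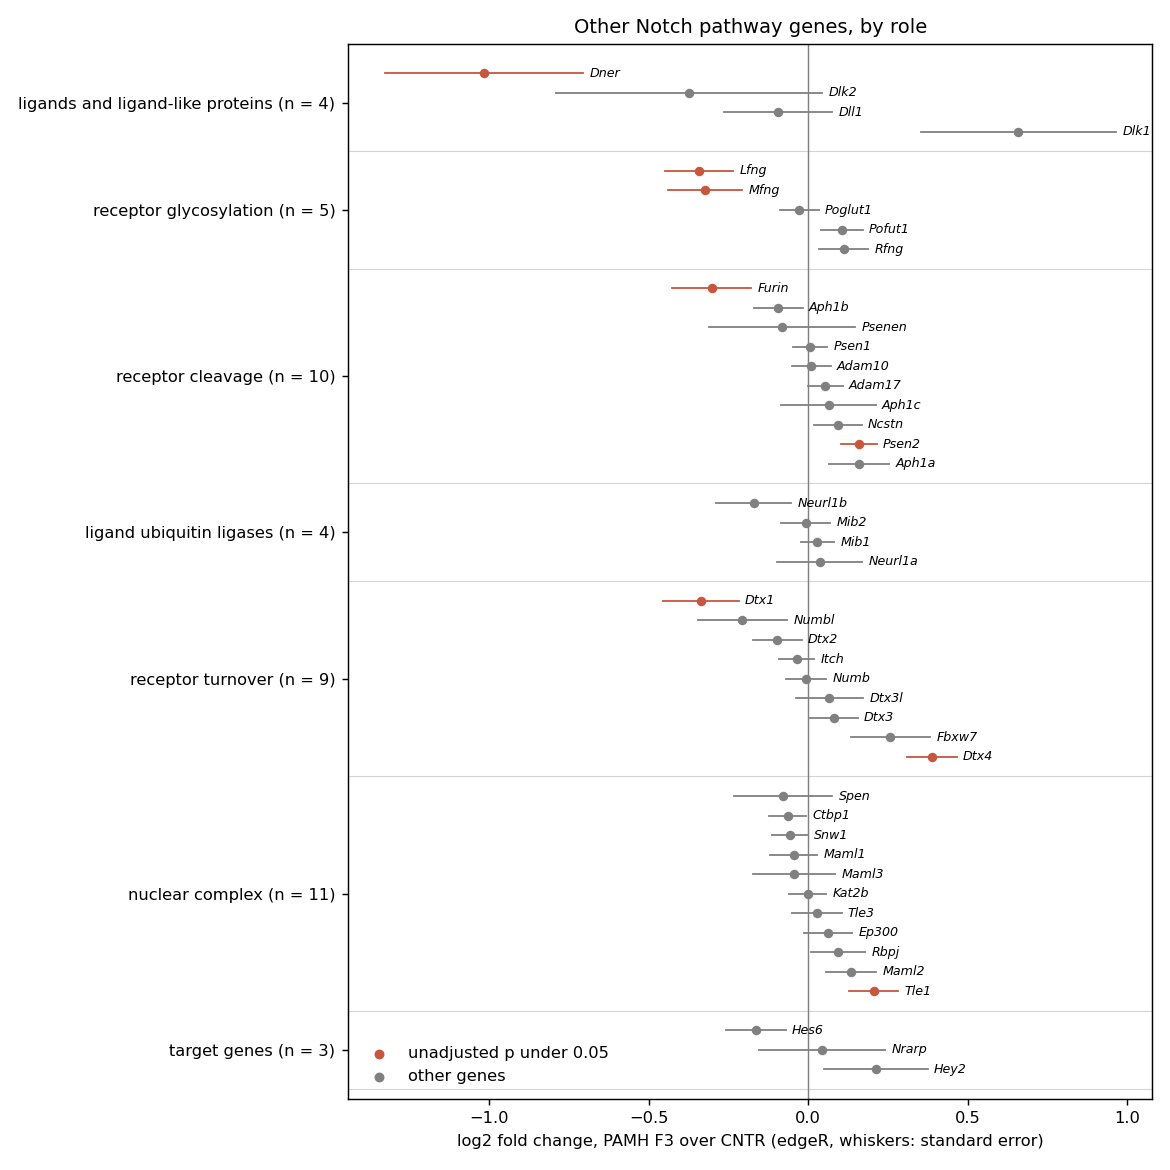
log2 fold change of PAMH F3 over CNTR (x axis, whiskers: standard error) of 46 of the 47 other pathway genes tested, grouped by role, with genes of unadjusted p under 0.05 in red. The red genes lie on both sides of 0, from Dner at -1.02 to Dtx4 at 0.39, and none passed after adjustment.

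Promoter sequences were searched for the core letters bound by RBPJ, TGGGAA, on both strands. Windows ran from 250 bases before to 50 bases after a gene start in RefSeq (GRCm38.p6). Of the 10 genes, 7 were matched by symbol (the receptors and the ligands), and 0 of these 7 windows held TGGGAA, beside 25.6% of all 32851 windows. The windows of the other pathway genes held it in 14 of 56, or 25%. The longer GTGGGAA, which contains the core, was in 6.38% of all windows. Lfng and Hey2 are shown as pathway genes with values given above whose windows hold the core more than once, a state found in 3.79% of all windows. Capitals mark the core or its reverse complement, TTCCCA. The Lfng stretch is chr5:140607194-140607250 on the plus strand, with the cores beginning 135 and 108 bases before the gene start. The Hey2 stretch is chr10:30842973-30843002 on the minus strand and shows the core that begins 207 bases before the start.
Lfng: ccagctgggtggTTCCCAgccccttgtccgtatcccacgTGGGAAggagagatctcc
Hey2: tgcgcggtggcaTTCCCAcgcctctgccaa
A match is a description of letters and not a bound site.

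For each of the 10 genes, the gene outside the list with the most similar log2 of CPM + 1 over the 7 libraries was found among 18769 genes. Jag2 was nearest to Mrpl36 (Pearson r = 0.998), Hes1 to Camk2b (0.994), Notch4 to Gtpbp3 (0.993), Hey1 to Naip5 (0.993) and Notch3 to Tbc1d16 (0.992). Notch1 was nearest to Rab35 (0.990), Jag1 to Zcchc18 (0.988), Notch2 to Ccn3 (0.985), Dll4 to Ace (0.984) and Heyl to Smurf1 (0.983). The number of genes with r above 0.9 ran from 22 for Notch2 to 980 for Jag2. These values are the highest of many and are given as a description only.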

How the data were processed

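RNA from ovaries of 3 CNTR and 4 PAMH F3 mice was sequenced from stranded poly(A) libraries as single reads of 50 bases. The authors mapped reads to mm10 with STAR 2.5.3a and counted uniquely aligned reads per gene with HTSeq-count 0.6.1p1 in union mode, after bcl2fastq 2.17.1.14 (versions from the submitters' processing notes), and deposited the raw counts without normalization. The Ensembl release and the strand setting of HTSeq are not given in the sources used here. Between 37.7% and 40.7% of alignments in a library were set aside as not unique and between 5.82% and 7.37% lay outside genes. The 5 lines that hold such reads entered no test. Symbols, positions and lengths came from GENCODE M21 (55394 of 55487 identifiers matched).

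PAMH F3 was tested against CNTR by edgeR's quasi-likelihood F test (edgeR 4.0.16, R 4.3.3) after TMM scaling. filterByExpr with a minimum count of 10 retained 18779 genes. The model held 2 surrogate variables from svaseq (sva 3.50.0, random seed 1), which left 3 residual degrees of freedom. Benjamini-Hochberg adjustment covered all genes tested, at a threshold of 0.05. IHW, used in the study with DESeq2, was not used here. CPM are TMM-scaled over all gene rows and carry no pseudocount. For the GC slopes, the search for similar genes and the deviations of same-numbered libraries, 1 was added to CPM before taking log2. Correlations used exact permutation tests over every order of the 7 libraries in Python 3.11.15 with scipy 1.17.1. Of genes on the other strand or inside the 10, the most counted was 0610009E02Rik at Notch1, with 50 to 80 reads.

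The 10 genes, the other pathway genes and the marker lists were chosen with earlier results of these data known. Named in the text are the 10 genes, and, of the other pathway genes, the most abundant per length in each role, those with unadjusted p under 0.05 and those whose groups did not overlap. Of these, 1 gene is counted but not reported here by name. Alternatives were DESeq2 1.42.0 with and without surrogate variables, other numbers of surrogate variables, median-ratio size factors, other filters, robust fitting, a replicate block and each library left out. Leaving out a library together with the surrogate variables, and the longest coding transcript as length, were chosen after seeing the data.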

Additional observations from a re-analysis of the deposited data

Results flagged for a closer look

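Among 27 genes examined for a library far from the others in the PAMH F3 group, 1 was found. Hey2 measured 48.6 CPM in PAMH F3 replicate 1 and between 58.8 and 60.4 CPM in the other 3 PAMH F3 libraries, a gap of 0.864 of the group's range, above Dixon's critical value for 4 samples. Chance gives such a gap in about 1 of 20 groups.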

How the results depend on the processing

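None of the 10 genes passed the adjusted threshold in any of the 24 alternatives, with lowest adjusted p values of 0.0716 for Jag2, 0.0865 for Notch4 and 0.130 for Jag1, all without CNTR replicate 1. Over all genes, DESeq2 called 101 with surrogate variables and 6 without, and edgeR called 8 without a filter on low counts. Leaving out 1 library gave between 0 and 39 calls, 39 without CNTR replicate 1, 37 without PAMH F3 replicate 1 and, with no surrogate variables, 2 without PAMH F3 replicate 1. The number of the 10 genes whose groups did not overlap ran from 0 to 2 when a library was left out. These were Notch4 without CNTR replicate 1 (15.5% of all genes then), Dll4 and Heyl without PAMH F3 replicate 1 (9.39%) and Jag2 without PAMH F3 replicate 3 (9.06%). With a library left out and the surrogate variables kept, the log2 fold change changed sign for Notch2 (-0.000477 to 0.0837). Hes1 (0.0178 to 0.167) and Hey1 (0.0163 to 0.226) kept their sign in those fits. With the surrogate variables left out as well, Hes1 ran from -0.0783 to 0.194 and Hey1 from -0.0787 to 0.267. Over all 24 alternatives, with and without surrogate variables, Jag2 stayed between -0.78 and -0.15, Notch4 between -0.69 and -0.15 and Jag1 between 0.07 and 0.38. Notch1 ran from -0.27 to -0.06 and Notch3 from -0.40 to -0.00051. The order of levels kept 0 of 10 places with the median length of annotated transcripts and 3 with the longest coding transcript. The replicate numbers 1 to 3 gave no clear sign of paired mice, although so few libraries cannot exclude pairing. Deviations of same-numbered libraries from their group means correlated at 0.12, 0.13 and -0.33. CNTR replicate 1 was most like PAMH F3 replicate 1, but CNTR replicates 2 and 3 were most like PAMH F3 replicates 3 and 4. The replicate block called 0 genes, with 447 at an unadjusted p under 0.05 (edgeR). The causes were not tested. The lowest count of any of the 10 genes in a library was 172, for Notch4.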
